A study of Mus musculus with 2 samples.

Results

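Succinate dehydrogenase, the second complex of the respiratory chain, was described here in livers of FLS and DS mice through 6 genes. These were its 4 subunit genes (Sdha, Sdhb, Sdhc and Sdhd) and 2 genes of assembly factors (Sdhaf1 and Sdhaf2), out of 18194 genes with a value on the array. The members were fixed by gene name, as all probe sets annotated to 1 of these genes, but the family itself was chosen by the signals of Sdhd, which were already known. The difference of Sdhd between the strains is therefore given as a description. All 6 genes were on the array, with 12 probe sets in all.

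The FLS sample was pooled liver RNA of 3 mice of the inbred fatty liver Shionogi strain, and the DS sample was pooled liver RNA of 3 mice of the inbred dd Shionogi strain. Both strains go back to an outbred ddN colony, FLS to its C line and DS to its A line, and each was inbred by mating full siblings. Mice of both strains were 19 weeks of age, ate the same standard pellet diet with no treatment named, and the livers were perfused with saline before removal. FLS livers served as the model of nonalcoholic steatohepatitis (NASH) and DS livers as the model of simple steatosis, although the methods also call the DS strain free of liver abnormalities. Each pool was hybridized to 1 Affymetrix array of the whole mouse genome. Since each condition is 1 strain, liver disease and inherited strain differences cannot be told apart, and with 1 array for each strain the differences lack any check against replicates and any p-value.

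Succinate dehydrogenase sits in the inner mitochondrial membrane and belongs to both the citric acid cycle and the respiratory chain. It oxidizes succinate to fumarate and passes the electrons to ubiquinone. All of its subunits are encoded in the nucleus. Sdha carries a covalently bound flavin, Sdhb carries the iron-sulfur clusters, and Sdhc and Sdhd form the membrane anchor that holds a heme and much of the ubiquinone site. In humans, mutations of the subunit genes cause paraganglioma and deficiency of the complex, and accumulated succinate can inhibit the prolyl hydroxylases that control hypoxia-inducible factors. Hepatocytes are rich in mitochondria and express all of these genes.

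Sdhd lies head to head with Timm8b, a gene of a small chaperone in the mitochondrial intermembrane space, and their annotated starts are 51 bases apart in RefSeq (GRCm38.p6, chromosome 9). The stretch between both starts is shown because the genes on either side of it had very different FLS/DS ratios, as given further on, and the 51 bases before the starts of Sdha and Sdhb are shown for comparison. Each runs 5′ to 3′ on the strand of the named gene, and capitals mark matches to the motifs searched.
Sdhd, chr9:50603850-50603900, minus strand: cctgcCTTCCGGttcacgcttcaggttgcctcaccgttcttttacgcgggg
Sdha, chr13:74350241-74350291, minus strand: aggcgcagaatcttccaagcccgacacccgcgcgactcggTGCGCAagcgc
Sdhb, chr4:140961220-140961270, plus strand: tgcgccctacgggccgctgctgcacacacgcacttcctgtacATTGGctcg

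The motifs were searched on both strands. The ETS motif CCGGAAG was found on the reverse strand of the Sdhd stretch and in 3.07% of the 32851 RefSeq windows of this length before a start. TGCGCA, a core of the NRF1 motif that reads the same on both strands, was found before Sdha and in 2.25% of the windows, and CCAAT was found on the reverse strand before Sdhb and in 8.76%. The GC box GGGCGG was found in none of these 3 stretches, but on the reverse strand before Sdhaf2 and in 16.4% of the windows. The window before Sdhaf1 held none of the 4 motifs. No matches overlapped in the windows shown. Promoter sequences were used for 5 of the 6 members, without Sdhc. A match is a description of the reference sequence and not of either strain, whose own sequences were not analysed here.

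Sdhd, a subunit of the membrane anchor, had a strong signal in the DS pool and a signal near the bottom of the array's range in the FLS pool. On its probe set with the higher mean signal, the signal intensity was 64.9 in FLS livers, against 4618 in DS livers. On the other probe set it was 43.0 in FLS livers, against 2018 in DS livers. The FLS/DS ratios were 0.0141 and 0.0213, or 71.2-fold and 46.9-fold lower in FLS livers as the signals stand.

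A signal intensity is an arbitrary unit of brightness that does not reach 0 where a transcript is absent. The lowest signal of any probe set was 38.2 in FLS livers, against 36.6 in DS livers, and about 67% of the 45101 probe sets lay below 200 in each pool (67.5% in FLS and 67.2% in DS). A signal below 200 was therefore taken as giving a bound, computed with that signal set to 200. A signal is the binding of labelled RNA to fixed probes. The probe sequences and the sequences of both strains were not analysed here, so the Sdhd values are differences in signal that were not traced to the amount of Sdhd RNA. With the FLS signal set to 200, Sdhd was at least 23.1-fold lower in FLS livers on the first probe set and at least 10.1-fold lower on the second. In the FLS pool, 13.5% of all probe sets had a lower signal than the first Sdhd probe set and 0.313%, or 141 probe sets, had a lower signal than the second. The corresponding shares in DS livers were 98.0% and 95.2%. The name of the second probe set ends in _x_at, which marks sets with probes that can match other transcripts, but the name of the first does not.

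Sdhc, which encodes the other subunit of the membrane anchor, had a clear signal in both pools. Its signal was 2037 in FLS livers, against 2420 in DS livers (ratio 0.842) on one probe set, and 1249.9 in FLS livers, against 1690.3 in DS livers (ratio 0.739) on the other. Both probe sets were thus slightly lower in FLS livers and neither reached a 2-fold difference. Sdhb, the iron-sulfur subunit, has 1 probe set, with 8374 in FLS livers, against 9304 in DS livers (ratio 0.900).

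Sdha, the flavoprotein subunit, measured 5074 in FLS livers, against 5219 in DS livers (ratio 0.972) on its brightest probe set. A second probe set had 3773 in FLS livers, against 3956 in DS livers (ratio 0.954), so both strong probe sets were close to equality. The remaining probe sets of Sdha had signals of 75.2 in FLS livers, against 75.8 in DS livers, and of 86.1 in FLS livers, against 82.0 in DS livers, and lay below 200 in both pools. No ratio was read from them. The signals of 86.1 and 82.0 were the nearest below that limit among the members, and the nearest probe set above it was the second probe set of Sdhaf2, at 367 in FLS livers and 395 in DS livers.

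The assembly factors were also measured in both pools. Sdhaf1, which helps to insert iron-sulfur clusters into Sdhb, measured 561 in FLS livers, against 483 in DS livers (ratio 1.16) and was the single member with a ratio above 1. Sdhaf2, which is needed for the attachment of flavin to Sdha, measured 645 in FLS livers, against 794 in DS livers (ratio 0.812) on one probe set, and 367 in FLS livers, against 395 in DS livers (ratio 0.928) on the other.

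Further assembly factors outside the 6 members showed the same range. Sdhaf3, which acts with Sdhaf1 in yeast and flies, measured 452 in FLS livers, against 543 in DS livers (ratio 0.833), and its second probe set lay below 200 in both pools, at 65.6 in FLS livers and 68.1 in DS livers. Sdhaf4, which binds the flavin-loaded Sdha during assembly in yeast, measured 1526 in FLS livers, against 1664 in DS livers (ratio 0.917). The 4 assembly factors had a median log2 ratio of -0.19.

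**Figure D1:**
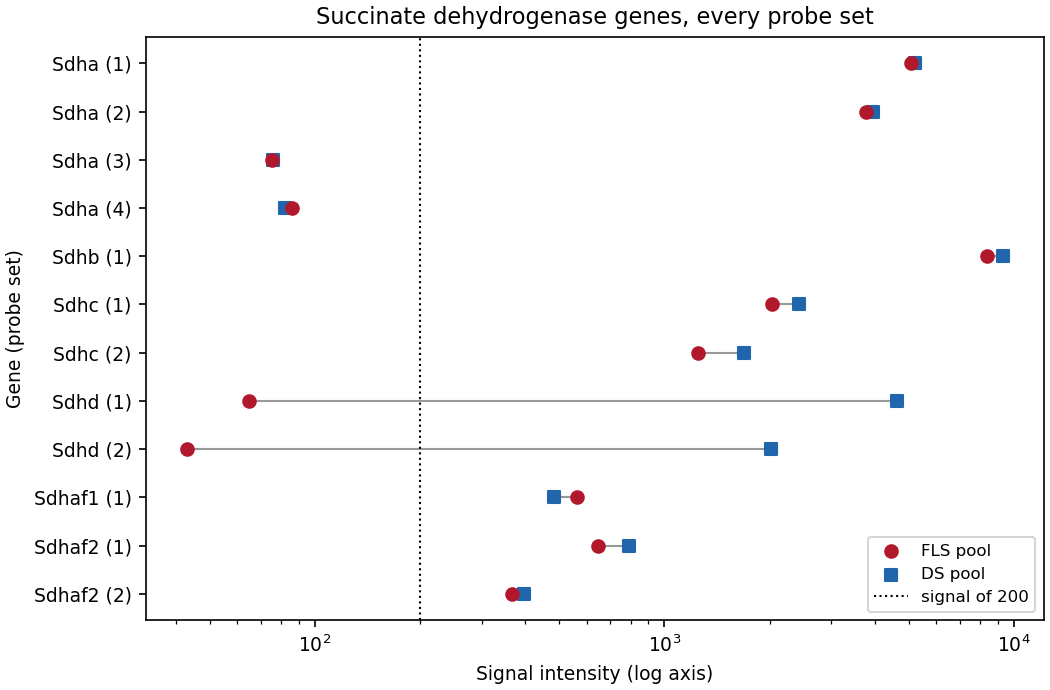
Signal intensity (log axis) of all 12 probe sets of the 6 genes in the FLS pool (red circles) and the DS pool (blue squares), 1 array each, with the probe set numbered 1 giving the value of its gene. The dotted line marks 200. In Sdhd alone, the FLS signals (64.9 and 43.0) lie left of the line while the DS signals (4618 and 2018) lie far to its right.

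Each gene was given 1 value, from whichever of its probe sets had the highest mean over both pools, and a gene was counted as measured with a signal above 200 in at least 1 pool. All 6 members were measured, and 5 of them were above 200 in both pools. One member, Sdhd, was at least 2-fold lower in FLS livers, and none was at least 2-fold higher. Of all 9160 measured genes, 119 (1.3%) lay at or beyond a 2-fold difference with the lower signal in FLS livers and 173 (1.89%) with the higher. With signals below 200 set to 200, these numbers were 99 lower and 134 higher. With all ratios divided by that of Actb instead, they were 92 lower and 279 higher. The family was chosen for the Sdhd ratio, so nothing is read from the share of its members.

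On their gene values, the 5 members other than Sdhd had ratios between 0.812 and 1.16. Their median log2 ratio was -0.15, against 0.03 over all measured genes. The pooled SD of log2 ratios between measured probe sets of the same gene was 0.26 over 3209 genes, and only Sdhaf2, at -0.30, lay further from 0 than this among the gene values of the 5. The second probe set of Sdhc, at -0.44, did so too. The Sdhd value was 6.00 below the median of Sdha, Sdhb and Sdhc on the log2 scale, as computed from the signals as they stand. With the FLS signal of Sdhd at 200, its log2 ratio was at most -4.53 and its difference from that median was -4.38.

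Division by Actb, whose ratio was 0.867, moved every log2 ratio up by 0.21. It turned the small differences of Sdha and Sdhb round, to log2 ratios of 0.16 and 0.05, so neither has a settled direction. The gene values of Sdhc, Sdhd and Sdhaf2 had ratios below 1, and that of Sdhaf1 a ratio above 1, under the main scaling and the 4 others tried. The Sdhd ratio then ranged from 0.0138 to 0.0162, Sdhc from 0.833 to 0.971, Sdhaf2 from 0.785 to 0.936 and Sdhaf1 from 1.13 to 1.34. The second probe set of Sdhaf2 turned round after division by Actb, from a log2 ratio of -0.107 to 0.098.

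As the signals stand, the 2 probe sets of Sdhd had the lowest FLS/DS ratios of all 45101 probe sets, but their order among low ratios rests on FLS signals below 200. With signals below 200 set to 200, the first Sdhd probe set ranked 1 from the lowest at a ratio of 0.0433, and the second ranked 7 at 0.0991. Of 2631 genes with a DS signal of at least 1000, 4 (0.152%) had an FLS signal below 200, namely Sdhd, Sdr9c7, Adgrv1 and Obp2a. Both probe sets of Sdhd met these limits. Sdr9c7 and Adgrv1 have 2 probe sets each and met them only on the one with the higher mean signal. With the mean signal over probe sets as gene value, the count was 3. In the opposite direction, of 2732 genes with an FLS signal of at least 1000, 7 (0.256%) had a DS signal below 200.

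The genes most like Sdhd were taken as those with the lowest FLS/DS ratio among genes with a DS signal of at least 1000, a likeness over 2 samples. Sdr9c7, of the short-chain dehydrogenase family, measured 53.6 in FLS livers, against 1105 in DS livers, which bounds it at 5.52-fold lower or more. Adgrv1, an adhesion G protein-coupled receptor, had 136 in FLS livers, against 2310 in DS livers, or at least 11.5-fold lower. Obp2a, a lipocalin, had 146 in FLS livers, against 2107 in DS livers, or at least 10.5-fold lower. Me1, the cytosolic malic enzyme, had 268 in FLS livers, against 3159 in DS livers, a ratio of 0.0850 measured above 200 in both pools. Its other probe set had 162 in FLS livers, against 1507 in DS livers, a ratio of 0.133 with the FLS signal set to 200. These genes have no settled order among themselves, since on their gene values all FLS signals but that of Me1 were below 200. No likeness in function is drawn.

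**Figure D2:**
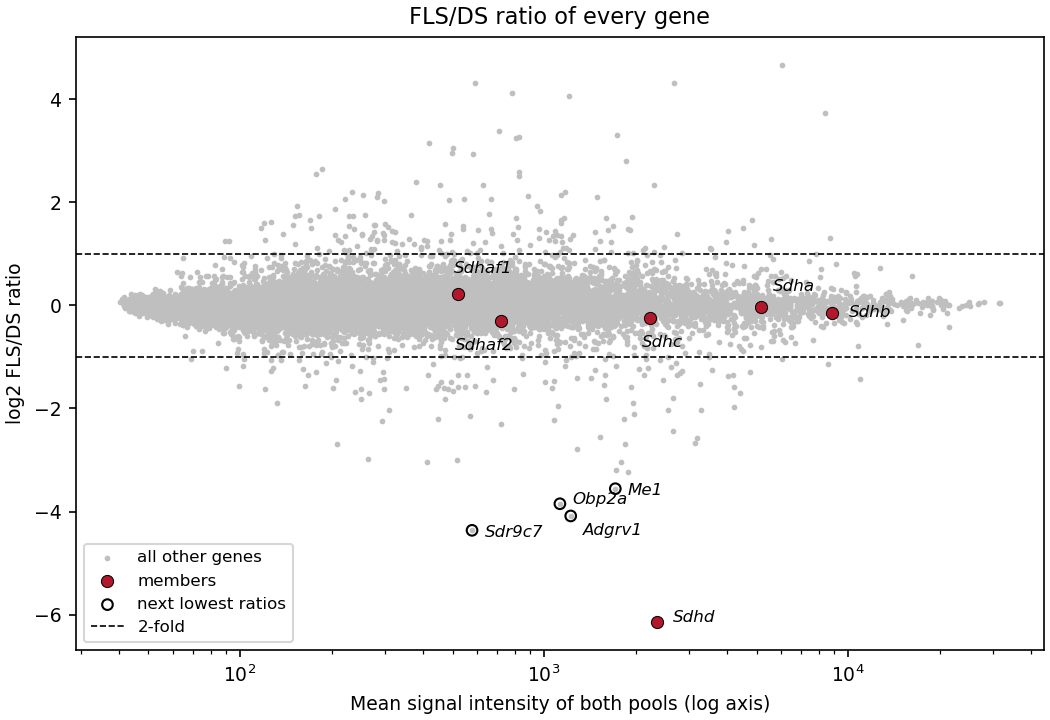
Log2 FLS/DS ratio of each gene against its mean signal intensity in both pools (log axis), 1 point for each of 18194 genes, with the 6 members in red and the 4 genes next lowest among those with a DS signal of at least 1000 as open circles. The dashed lines mark 2-fold differences. As the signals stand, Sdhd lies at -6.15, below all other points, and the other 5 members lie between -0.30 and 0.22.

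The genes beside Sdhd on the chromosome were compared next, as the 5 protein-coding genes on either side in RefSeq. Of these 10 genes, 7 were measured, and none was at least 2-fold lower or higher in FLS livers. All 7 had ratios below 1, from 0.526 to 0.931, with a median log2 ratio of -0.22, or -0.01 after division by Actb. Of all measured genes, 45.4% had a ratio below 1.

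Timm8b, which shares the 51-base stretch with Sdhd, measured 1364 in FLS livers, against 1622 in DS livers (ratio 0.841). Timm8b was thus slightly lower in FLS livers and did not reach 2-fold. The signal of Sdhd was at least 23.1-fold lower on its first probe set and at least 10.1-fold lower on its second. A part of the shared stretch in these ratios was not tested. Further out on the Timm8b side, Dlat, a subunit gene of pyruvate dehydrogenase, had 669 in FLS livers, against 718 in DS livers (ratio 0.931). Dixdc1, of the Wnt pathway, had 199.8 in FLS livers, against 329.8 in DS livers, a ratio of 0.606 with its FLS signal just under 200. Nkapd1 and Pih1d2 lay below 200 in both pools, at 162 and 72.4 in FLS and at 185 and 68.4 in DS livers.

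On the other side, the nearest gene was Tex12, of the synaptonemal complex, which was below 200 in both pools, at 125 in FLS livers, against 146 in DS livers. Il18, an inflammatory cytokine, had 744 in FLS livers, against 865 in DS livers (ratio 0.860). Bco2, a mitochondrial enzyme that cleaves carotenoids, had the lowest ratio among the neighbours, with 416 in FLS livers, against 791 in DS livers (ratio 0.526). Pts, of tetrahydrobiopterin synthesis, had a ratio of 0.861 and Plet1 of 0.911. No neighbour approached the difference of Sdhd.

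**Figure D3:**
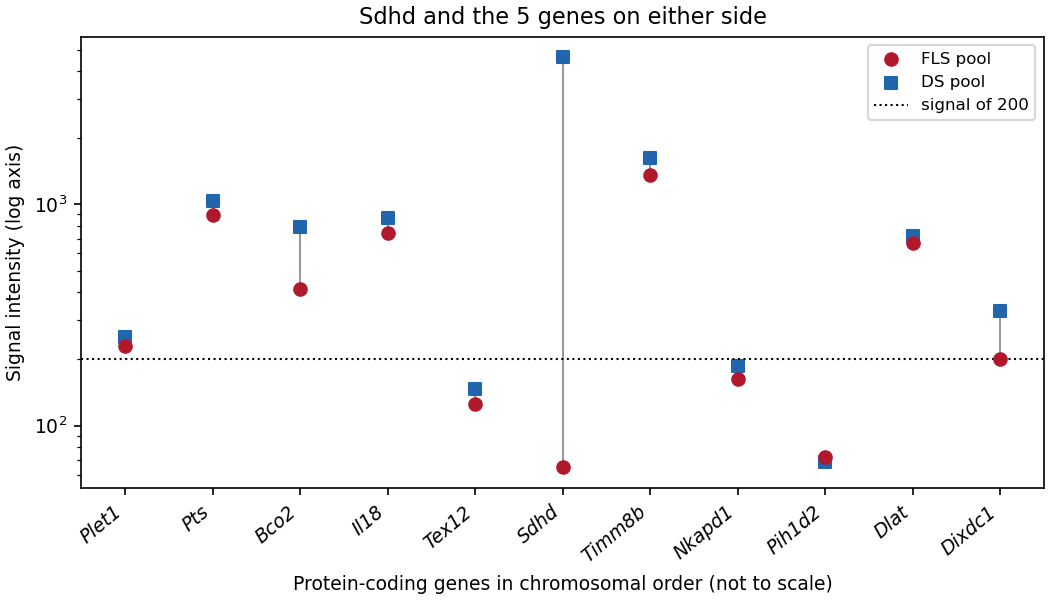
Signal intensity (log axis) in the FLS pool (red circles) and the DS pool (blue squares) of Sdhd and the 5 protein-coding genes on either side of it, in chromosomal order and without scale. The dotted line marks 200. Timm8b, directly to the right of Sdhd, has signals of 1364 (FLS) and 1622 (DS), while those of Sdhd are 64.9 (FLS) and 4618 (DS).

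Around the 6 members together there were 60 neighbouring genes, 32 of them measured. None was lower by 2-fold or more in FLS livers, and 2 were higher by as much. Both lie near Sdhc: Nr1i3, the nuclear receptor CAR, measured 2819 in FLS livers, against 1020.0 in DS livers (ratio 2.76), and Pcp4l1 had 880.5 in FLS livers, against 113 in DS livers (at least 4.40-fold higher). Sdhc itself, at 0.842, did not share their direction.

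The other complexes of the respiratory chain showed no difference of the size of Sdhd. Of 65 measured nuclear subunit genes of complexes I, III, IV and V, none was at least 2-fold lower or higher in FLS livers on its gene value, and the lowest ratio was 0.717, that of Ndufc1. Their median log2 ratio was -0.0079. The medians of these and the following lists move up by about 0.21 with Actb, so that of complex I was -0.06 as deposited and 0.14 after the division, and no direction is given for them. Complex I, which oxidizes NADH, had 32 measured genes with ratios from 0.717 to 1.16. After Ndufc1, the lowest in complex I were Ndufs4 at 0.798 and Ndufv1 at 0.875, and the highest were Ndufa7 at 1.16, Ndufs8 at 1.15 and Ndufb8 at 1.11. Without _x_at and _s_at probe sets, Ndufv1 was taken from another probe set, with 1355 in FLS livers, against 4482 in DS livers (ratio 0.302), and was then at least 2-fold lower. Complex III, which takes electrons from ubiquinone, had 9 measured genes from 0.851 (Uqcr10) to 1.08 (Uqcrq). Complex IV, which reduces oxygen, had 9 from 0.976 (Cox5a) to 1.08 (Cox6a1), and complex V, the ATP synthase, had 15 from 0.927 (Atp5o) to 1.07 (Atp5d).

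Genes of the citric acid cycle apart from succinate dehydrogenase also stayed within 2-fold, in all 13 that were measured. Their median log2 ratio was 0.12. Upstream of succinate, the succinyl-CoA ligase genes had ratios of 0.853 (Sucla2), 1.07 (Suclg1) and 1.03 (Suclg2). Downstream, fumarase (Fh1) measured 4250.4 in FLS livers, against 4696 in DS livers (ratio 0.905). The highest ratios were those of citrate synthase (Cs) at 1.46, Idh2 at 1.45 and Ogdh at 1.25, and the lowest, with Sucla2, were those of Dld at 0.849 and Idh3a at 0.898.

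**Figure D4:**
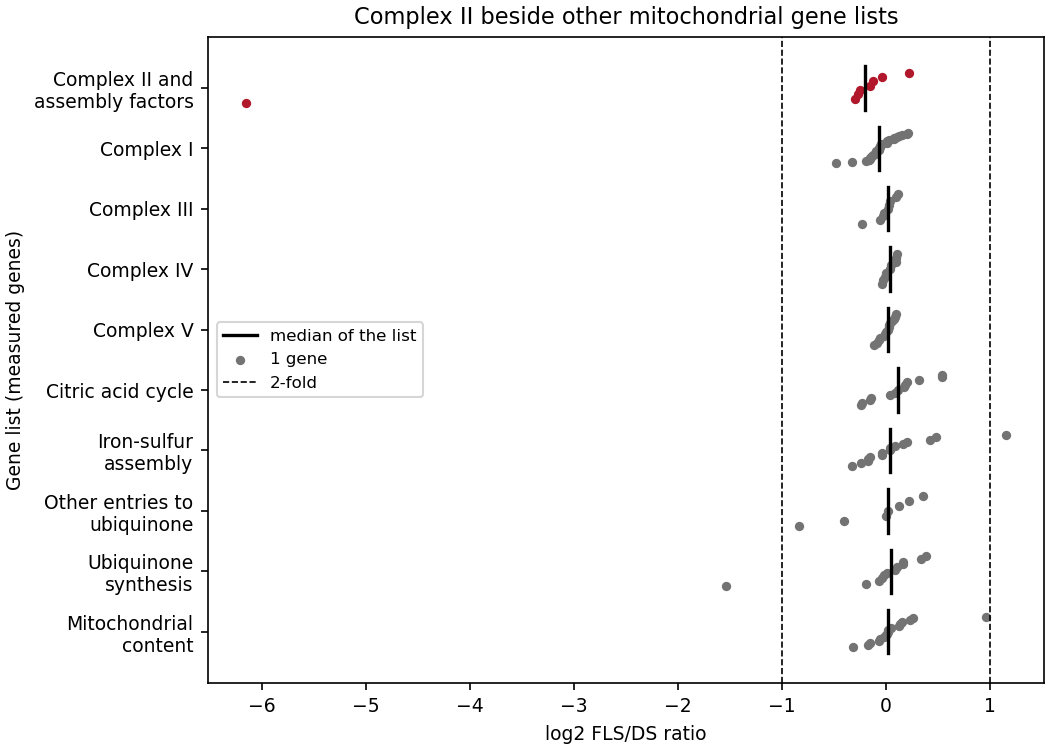
Log2 FLS/DS ratio of each measured gene (points) in 10 mitochondrial gene lists, with the list median as a black bar and dashed lines at 2-fold. The first list (red) holds the 4 subunits and 4 assembly factors of complex II. Sdhd stands alone at -6.15, the other 7 complex II genes lie between -0.30 and 0.22, and no subunit of complexes I, III, IV and V lies outside the dashed lines on its gene value.

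Genes that supply the cofactors of the complex were looked at as groups. For iron-sulfur cluster assembly, 15 of the 19 listed genes were measured, and none was lower by 2-fold or more in FLS livers. Iba57, a late-acting assembly factor, had 334 in FLS livers, against 150.1 in DS livers, a ratio of 2.22 as the signals stand but a bound of 1.67-fold higher, so it was not shown to reach 2-fold. The ratios of Slc25a28 and Bola1 were 1.40 and 1.34. The lowest ratios were those of Glrx5 (0.798), the scaffold gene Iscu (0.846) and the iron importer gene Slc25a37 (0.885). The median log2 ratio of the list was 0.04. For flavin supply, 3 of 5 genes were measured, with ratios of 1.21 for Flad1, the FAD synthase, 0.986 for riboflavin kinase (Rfk) and 0.730 for Slc25a32, the mitochondrial folate and FAD carrier.

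Ubiquinone, which receives the electrons of succinate, is made by the Coq enzymes. Of 12 measured genes listed with its synthesis, 1 was at least 2-fold lower in FLS livers. This was Coq10b, the gene of a ubiquinone-binding protein and not of a synthesis enzyme, with 805 in FLS livers, against 2336 in DS livers (ratio 0.345). The others lay between 0.873 (Coq2) and 1.31 (Coq8a). Of 7 measured genes of other enzymes that pass electrons to ubiquinone, none reached 2-fold. Gpd2, the mitochondrial glycerol-3-phosphate dehydrogenase, had the lowest ratio at 0.559, with 796 in FLS livers, against 1424 in DS livers. Etfb of the electron transfer flavoprotein had 0.757, while Sqor, the sulfide oxidase, had 1.28 and Prodh, of proline oxidation, 1.16.

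Succinate also leaves mitochondria and acts as a signal. Among 5 measured genes of succinate transport, its receptor and related enzymes, 1 was at least 2-fold higher in FLS livers. This was the plasma membrane carrier gene Slc13a3, at 454 in FLS livers, against 159 in DS livers (at least 2.27-fold higher). The succinate receptor gene Sucnr1 had 2310.5 in FLS livers, against 1516 in DS livers (ratio 1.52). The mitochondrial dicarboxylate carrier gene Slc25a10 had a ratio of 0.828, the GABA transaminase gene Abat 0.840 and the succinic semialdehyde dehydrogenase gene Aldh5a1 1.04.

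Genes of the hypoxia response, which depends on prolyl hydroxylases, had a median of 0.0052 (log2 ratio) among the 14 that were measured. A single gene was 2-fold apart, and it was lower in FLS livers: Pdk1, a kinase of pyruvate dehydrogenase, at 362 in FLS livers, against 992 in DS livers (ratio 0.365). P4ha1, a collagen prolyl hydroxylase, had 0.568 and Bnip3, of mitophagy, 0.797. The highest ratios were those of the hydroxylase gene Egln3 (1.35), the glucose transporter gene Slc2a1 (1.34) and Hif1an (1.21).

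Among 17 measured genes of mitochondrial content and its regulators, none reached 2-fold as deposited, and the median log2 ratio was 0.02. Mitochondrial content itself was not measured. The chaperonin genes Hspe1 and Hspd1 had the lowest ratios, 0.805 and 0.888, and the import receptor gene Tomm20 had 0.902. The coactivator gene Ppargc1a had 219 in FLS livers, against 112 in DS livers, a bound of 1.09-fold higher. Its ratio from the signals as they stand was 1.95, and 2.03 after removal of a loess trend and 2.24 after division by Actb. The coactivator gene Ppargc1b had a ratio of 1.18 and the polymerase gene Polg 1.20. Gabpa, which encodes an ETS factor known to act on respiratory chain genes, had 780.3 in FLS livers, against 781 in DS livers (ratio 0.999).

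In bulk liver, fewer cells of a type and less RNA per cell cannot be told apart. Hepatocyte markers were present as the tissue label requires, with 10 of 12 found and measured and ratios from 1.01 to 1.35, and their summed signal was 204374 in FLS livers, against 196851 in DS livers. Of 8 measured stellate cell markers, 2 (Col3a1 and Vim) reached 2-fold with the higher signal in FLS livers and Pdgfrb was bounded at 1.81-fold higher. As the signals stand, 3 of the 8 were at least 2-fold higher, against 1.89% of all measured genes. With the median over probe sets as gene value, 1 was. Lrat (ratio 0.880) and Acta2 (0.919) had ratios below 1. The summed signal over 10 stellate cell genes was 14437 in FLS livers, against 10057 in DS livers. Of 8 Kupffer cell and macrophage markers, none reached 2-fold and 7 had ratios below 1. A ratio below 1 was found in 45.4% of all measured genes. Among the 7, Timd4 had an FLS signal below 200 and was bounded at 1.01-fold lower. The 8 markers summed to 4555 in FLS livers, against 6025 in DS livers. Of 5 measured endothelial markers none reached 2-fold, with sums of 6074 in FLS livers, against 5420.2 in DS livers. After division by Actb, the endothelial gene Tek had a ratio of 2.11. Cholangiocyte markers summed to 729 in FLS livers, against 543 in DS livers over 4 genes, and of 2 measured genes Sox9 was bounded at 1.83-fold higher. The other, Epcam, had 182 in FLS livers, against 211 in DS livers, a bound of 1.05-fold lower. Krt19 and Krt7 lay below 200 in both pools. The higher sum in FLS livers came from Sox9, so no direction is read from it for the cell type. Neutrophil markers summed to 829 in FLS livers, against 960.4 in DS livers. T and NK cell markers summed to 847 in FLS livers, against 870.5 in DS livers. Each sum covers 6 genes, with 2 measured in each list and none of them 2-fold apart. The other genes in these sums lay below 200 in both pools, so no direction is read from the sums. By staining, the study reported neutrophils and CD3-positive cells in FLS livers. Neutrophil and T cell markers had low signals, with ratios on both sides of 1. S100a8 was at 81.5 in FLS livers, against 110.2 in DS livers, and Cd3e at 195 in FLS livers, against 208 in DS livers. Csf3r was at 307 in FLS livers, against 293 in DS livers, Cd3d at 106 against 100 and Cd3g at 102 against 80.1. The part of all these cell types in the ratios of the succinate dehydrogenase genes was not tested.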

How the data were processed

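Liver RNA of 3 FLS and 3 DS mice was pooled by strain and measured on 1 array each. The authors' files hold 1 intensity per probe set, not logged, from the model-based expression index (perfect-match probes only) after normalization. The submitters' processing notes list affy, with its version not stated. For the scaling between both arrays the method is unknown: not given in the sources used here.

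From these, FLS/DS ratios were computed with no offset. The platform annotation gave 1 symbol to 34958 probe sets, several to 932 (not used) and none to 9211, and 34754 symbols were updated through Entrez numbers in the RefSeq table (GRCm38.p6). List names were matched for 221 of 241 genes in 20 lists. The members, lists and limits were chosen with earlier results of these data known. Named genes were the complex II genes, the neighbours of Sdhd, the genes most like Sdhd and up to 3 lowest and 3 highest ratios of each list, and others were picked after their values were seen.

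Alternatives were quantile normalization, median centring, loess (fraction 0.4), division by Actb, an offset of 50, other gene values, no _x_at or _s_at probe sets, signal limits of 100 and 500 or 200 in both pools, and fold limits of 1.5 and 3. Setting signals below 200 to 200 was added after seeing the data. A value was taken to move by more than 0.26 (log2) or a count by more than 1.5 times. The calculations were tested on simulated data with Python 3.11.15, and pandas 2.3.3, numpy 2.4.6 and statsmodels 0.14.6 were used. Plots were drawn with matplotlib 3.10.9. The number of arrays, 2, limits the precision.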

Additional observations from a re-analysis of the deposited data

How the results depend on the processing

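Under 16 settings, 991 of 1046 values stayed within the limits given for a move, 55 moved and none of at least 2-fold turned round. Some of the 1046 could not move by construction, such as values of genes with 1 probe set where probe sets were combined. The log2 ratio of Sdhd was -5.34 with an offset of 50, -5.85 as the median over its probe sets and -4.53 with signals below 200 set to 200 (chosen after seeing the data), and its distance from the median of Sdha, Sdhb and Sdhc was -5.19, -5.70 and -4.38 in that order. By construction, Sdhd is not counted where 200 is required in both pools, which leaves 0 members lower and 104 genes higher. With fold limits of 1.5 and 3, 324 and 50 genes were lower and 490 and 57 higher, and 279 were higher after division by Actb. With limits of 500 and 200, 8 genes were high in DS and low in FLS and 14 the other way, and with 1000 and 100 there were 2 each way. The median of flavin supply was -0.29 over all probe sets, and that of cholangiocyte markers 1.38 without _x_at and _s_at probe sets. One complex I gene (Ndufv1, ratio 0.302) was past 2-fold without those probe sets. In the list of mitochondrial content and its regulators, 1 gene (Ppargc1a) was so after loess and after division by Actb. The value of 1.38 is the log2 ratio of Sox9, and the Ndufv1 ratio came from another of its probe sets. For Ppargc1a, the FLS signal became 229 after loess and 252 after division by Actb, against 112 in DS livers. Why probe sets of 1 gene differ was not tested. No paired analysis was possible because each strain has 1 array. Signals below 200 limit what can be said of Sdhd in FLS livers.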

Other observations

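Among genes of the respiratory chain outside the lists, Ndufaf2, an assembly factor of complex I, was picked out after its values were seen. Its single probe set measured 1033 in FLS livers, against 134 in DS livers, or at least 5.16-fold higher with the DS signal set to 200, and was among the 7 genes with an FLS signal of at least 1000 and a DS signal below 200.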
